A study of Mus musculus with 29 samples.

Results

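The heat shock proteins and their DnaJ co-chaperones were followed through heart failure and recovery in ventricular tissue of C57BL6 mice (C57BL/6J in the methods of the study). The members were the genes of the deposited mouse table whose symbols belong to the Hspa, Hspb, Hspd, Hspe, Hsph, Hsp90, Dnaja, Dnajb or Dnajc families, together with Cryab and Bag3. The rule found 76 members among 29955 genes. Of these, 66 had a mean of at least 0.5 FPKM (fragments per kilobase of transcript, scaled to the mapped fragments of the library) over the 24 libraries used and were tested, among 12759 genes tested in all. Mice of the heart failure (HF) groups were given NaCl and the nitric oxide synthase inhibitor L-NAME in their water from the start of the protocol, and received angiotensin II by osmotic pump from the end of the first week. They were 3 months old at the start, and were sampled at week 3 (2 libraries) and week 5 (3 libraries). Recovery mice went through the same 5 weeks and were then left without L-NAME, NaCl or angiotensin II until week 7 (2 libraries), week 9 (2 libraries), week 11 (3 libraries), week 13 (2 libraries) or week 19 (5 libraries). The 5 control libraries come from untreated mice of week 19, so the controls are 14 weeks further on than the mice of HF week 5, and age and treatment cannot be told apart in that comparison. The same limit holds for HF week 3 against the controls and for Recovery week 19 against HF week 5. Recovery weeks 7 to 13 also differ in week from both HF week 5 and the controls. Only Recovery week 19 shares its week with the controls. The libraries are numbered within a group by their order in the table and are not tied to a labelled animal. The labels name the tissue as whole ventricle and the source as whole heart, and the methods of the study state that apical portions were frozen for RNA.

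Molecular chaperones of the Hsp70 family bind unfolded stretches of protein in a cycle driven by ATP. DnaJ proteins (Hsp40s) bring the substrate and switch on the ATPase, and nucleotide exchange factors such as Bag3 and the Hsp110 proteins release it. Each compartment has its own set: Hspa8 and the inducible Hspa1a and Hspa1b in the cytosol, Hspa5 (BiP) in the endoplasmic reticulum (ER) and Hspa9 (mortalin) in the mitochondrial matrix, where Hspd1 and Hspe1 form the Hsp60 and Hsp10 folding chamber. Heat shock factors raise the cytosolic genes through heat shock elements, and the unfolded protein response raises the ER genes. Heart muscle is rich in small heat shock proteins such as Cryab, which hold sarcomeric and desmin filaments.

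Some libraries stood apart before any comparison. The 3 atrial marker genes Myl7, Sln and Myl4 summed to 39730 FPKM in library 1 of HF week 5, 414.7 in library 2 and 15.5 in library 3. In HF week 3 they summed to 7737 and 14050 FPKM, against 3.04 to 13.4 in all control and recovery libraries. The summed level of the 10 cardiomyocyte markers was 22480 FPKM in library 1 of HF week 5, 36870 to 41370 in its other libraries and 36250 to 43700 in the controls. Myh6, the main myosin heavy chain of the adult mouse heart, was listed at 0 in every library of the control, HF week 5 and Recovery week 19 groups, and averaged 169700 FPKM in HF week 3 and 191800 FPKM in Recovery weeks 7 to 13. Comparisons between these sets of libraries carry this difference in the table, and its part in them was not tested. The 6 fibroblast markers summed to 321.7 to 630.0 FPKM in HF week 5 and 224.8 to 313.3 in the controls, and the 6 endothelial markers to 211.6 to 282.4 and 179.0 to 204.7. The 4 smooth muscle markers summed to 134.7 to 226.7 FPKM in HF week 5 and 69.8 to 99.2 in the controls. The 3 skeletal muscle markers, carried by Acta1, an actin that heart muscle also expresses, summed to 578.3 to 1317 FPKM in HF week 5, 921.6 and 2218 in HF week 3 and 129.3 to 436.4 in the controls, with Myh4 listed at 0 in all of these groups. Acta1 was 4.54-fold higher in HF week 5 than in the controls (limma, adjusted p = 0.00145). The part of these markers in the results below was not tested, and in whole tissue fewer cells of a type and less RNA per cell cannot be told apart. Library 1 of HF week 3 listed 12816 genes above 0, against 16339 to 18091 in the others. Members made up 0.690 to 1.38% of the summed FPKM of a library.

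The most abundant members over the 24 libraries were Cryab, Hspa8, Hspb6, Hspb1, Hspb7, Hsp90ab1 and Hspe1, in this order. In the controls Cryab had 2707 ± 127 FPKM (SD, n = 5) and Hspa8 986 ± 111 FPKM. Their small heat shock relatives and the constitutive Hsp90 followed, with Hspb6 at 931 ± 130.5, Hspb1 at 796 ± 80.5, Hspb7 at 791 ± 131 and Hsp90ab1 at 594 ± 34.2 FPKM, and from Hspa8 down to Hsp90ab1 each overlapped with its neighbour in this order in the control libraries. The mitochondrial Hspe1 (322 ± 57.9 FPKM) exceeded its partner Hspd1 (121 ± 5.87 FPKM) in all control libraries. Inducible Hspa1a was at 19 ± 17.1 FPKM, far under Hspa8 in every library. The 10 members under the limit were the DnaJ genes Dnajb3, Dnajb7, Dnajb8, Dnajb13, Dnajc5b, Dnajc5g, Dnajc6 and Dnajc22, with Hspb9 and Hspbap1; Dnajb8 was listed at 0 in all libraries.

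In HF week 5 the members lay mostly below the controls. By limma on log2(FPKM + 0.5), with p-values adjusted by the Benjamini-Hochberg method over all genes tested and called under 0.05, 23 of 66 members were lower and 2 higher. Among all genes tested, 12.4% were called lower and 11.6% higher (24.0% in all). An unadjusted p under 0.05 was reached by 30 members and by 36.5% of all genes. The median log2 fold change was -0.30 over the members tested and 0.04 over all genes. Sorted by compartment, 6 of 10 mitochondrial, 5 of 14 ER, 8 of 20 cytosolic DnaJ, 2 of 13 Hsp70, Hsp110 and Hsp90 genes, and 2 of 8 in the group of small heat shock proteins and Bag3, were lower, and the 2 higher members were Dnajc10 of the ER and Dnajc2 of the ribosome. Recovery week 19 against HF week 5 had 20 members called higher and 2 lower, where 12.3% of all genes were called higher and 12.0% lower (24.2% in all), and 32 members and 36.8% of all genes had an unadjusted p under 0.05. The HF week 5 libraries enter both of these comparisons, whose values are given side by side and are not independent.

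**Figure D1:**
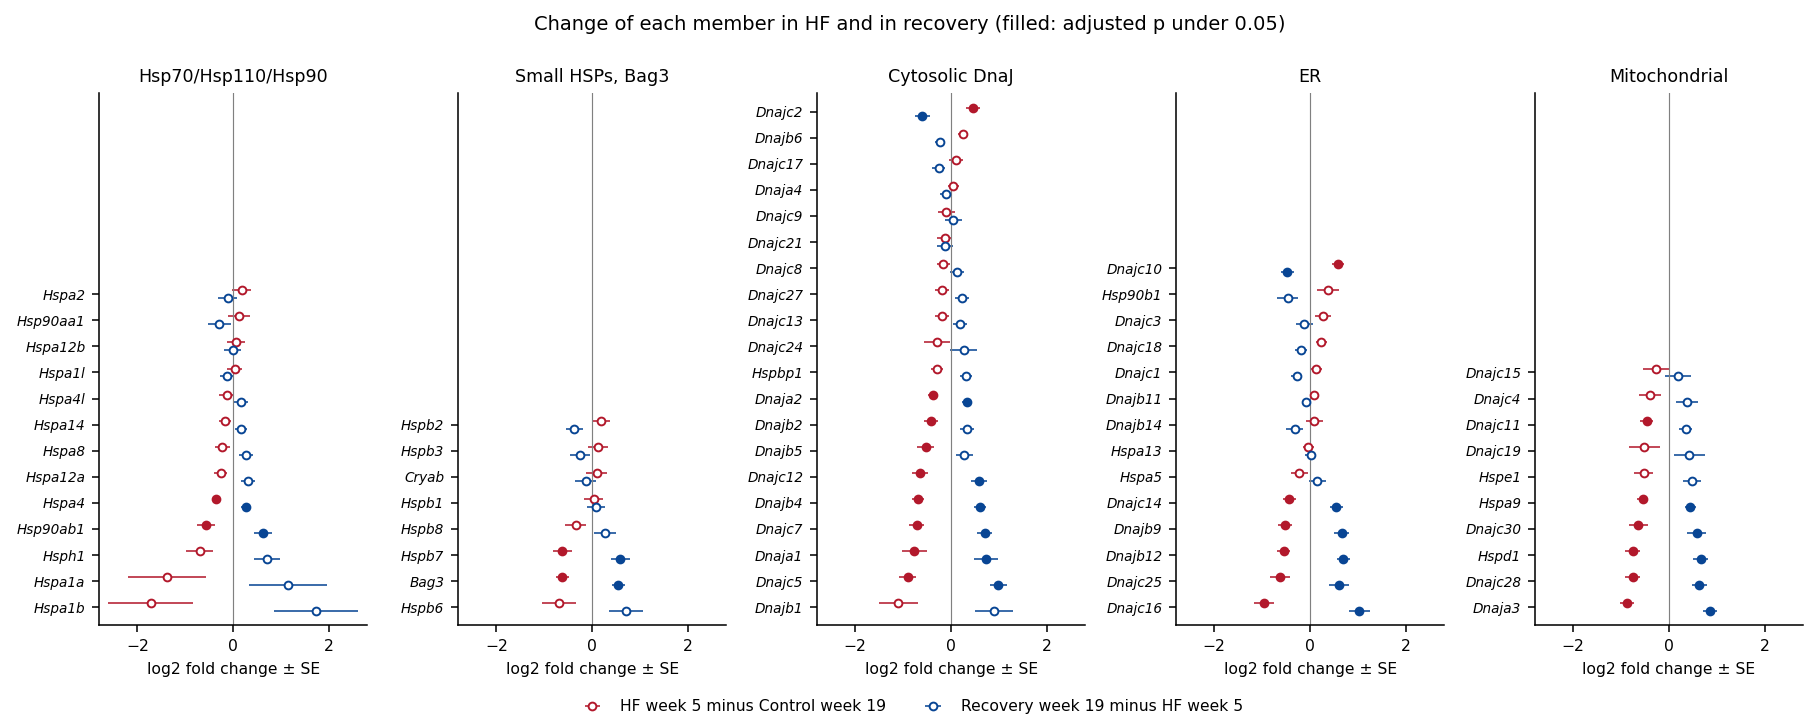
Each point is the log2 fold change (on log2(FPKM + 0.5)) of a tested member with its standard error, HF week 5 minus Control week 19 in red and Recovery week 19 minus HF week 5 in blue, filled where the adjusted p is under 0.05. The 10 mitochondrial members lie left of 0 in HF, between -0.87 and -0.27, while ER members lie on both sides and Hspa1a and Hspa1b carry the widest errors.

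The counts lean on library 1 of HF week 5, the library highest in atrial genes. Libraries 2 and 3, which stay in, also summed above the controls in these genes (414.7 and 15.5 FPKM against 4.834 to 8.515). Without library 1, 12 members were called against the controls (1 higher, 11 lower, with 10.7% of all genes called) and 10 between Recovery week 19 and HF week 5 (12.2% of all genes). The same 12 members were called in all 18 alternatives run for this comparison: Dnajc10 higher, and Dnajc16, Dnajc5, Dnaja3, Dnajc28, Hspd1, Dnajc7, Dnajb4, Dnajc12, Bag3, Hspa9 and Dnajb12 lower. Without control library 3, 15 members and 17.4% of all genes were called.

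**Figure D2:**
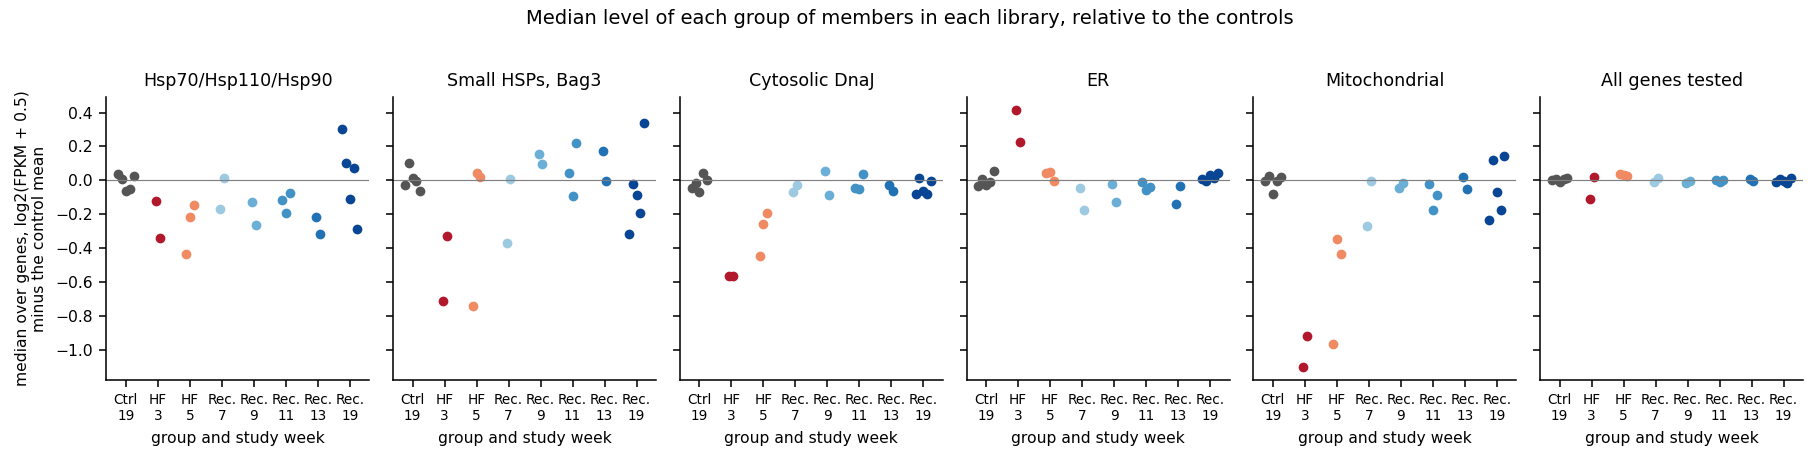
Each point is one library, and its height is the median over the tested genes of a group of log2(FPKM + 0.5) minus the mean of the controls; the groups stand in order of study week. The mitochondrial members sit at -0.96, -0.35 and -0.43 in HF week 5 and the ER members at 0.04, 0.05 and 0.00, while the median of all genes stays between -0.11 and 0.04.

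The mitochondrial chaperones were the group with the largest share of calls in HF. Dnaja3 (Tid1), the DnaJ partner of Hspa9 in the matrix, had 50.5, 50.8, 49.9, 50.4 and 39.9 FPKM in the controls and 17.8, 33.0 and 30.2 in HF week 5. In Recovery week 19 it had 45.4, 51.8, 50.4, 43.0 and 47.0 FPKM. The HF libraries lay below every control and recovery library, with no overlap (log2 fold change -0.87 with SE 0.15, adjusted p = 0.000475 against the controls; 0.85, adjusted p = 0.000569 for Recovery week 19 against HF). Hspd1 (Hsp60), the subunit of the folding chamber, was at 119.9, 123, 114, 118 and 129 FPKM in the controls, 47.6, 85.8 and 88.1 in HF week 5 and 119.6, 111, 119, 119 and 95.5 in Recovery week 19. Again no HF library reached a control (log2 fold change -0.76 with SE 0.16, adjusted p = 0.00231), and the level of Recovery week 19 was 0.66 log2 units above HF (adjusted p = 0.00578). Its lid Hspe1 (Hsp10) had 293, 319.8, 288, 287 and 423 FPKM in the controls, 159.9, 254 and 261 in HF and 252, 366, 271, 277 and 386 in Recovery week 19. Hspe1 was below all controls in HF but missed the threshold (log2 fold change -0.53 with SE 0.19, adjusted p = 0.0518), and control library 5 stood well above the others. Hspa9 (mortalin), the Hsp70 of the matrix and of protein import, had 167, 167, 161, 168 and 158 FPKM in the controls and 85.7, 136 and 121 in HF (log2 fold change -0.55 with SE 0.12, adjusted p = 0.00324). It was at 150.0, 147, 167, 153 and 148 FPKM in Recovery week 19, all above HF (0.45, adjusted p = 0.0115). Without library 1 of HF week 5 the recovery calls of Hspd1 and Hspa9 were lost (adjusted p 0.00249 to 0.0563 and 0.00317 to 0.115 over 18 alternatives), and that of Dnaja3 was kept.

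Hspd1 and Hspe1 lie on opposite strands of chromosome 1, and a stretch is shown because the window of Hspe1 and 1 of the 2 windows of Hspd1 hold the same heat shock letters. It lies between the start sites of those windows, and the other Hspd1 window, around a start site on the far side of the Hspe1 start, held no match. The 3-base units are in capitals, on the Hspd1 strand at chr1:55088053-55088082 (minus strand, RefSeq sequence of GRCm38.p6).
Hspd1 and Hspe1: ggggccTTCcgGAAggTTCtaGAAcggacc
A run of 3 such units (GAA, TTC and GAA, or TTC, GAA and TTC, each 2 bases apart, on either strand) was in the promoter window (250 bases before to 50 after the start) of 4 of 53 tested members with a window: Hspd1, Hspe1, Hsph1 and Dnajb6. It was in 0.662% of 27025 genes with a window. A match is a description of the letters only.

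The mitochondrial DnaJ proteins fell in part. Dnajc28 had 7.37, 6.13, 6.43, 7.81 and 6.49 FPKM in the controls and 2.95, 4.53 and 4.16 in HF week 5, without overlap (log2 fold change -0.76 with SE 0.15, adjusted p = 0.00176). It was at 7.59, 6.07, 6.70, 6.82 and 4.34 FPKM in Recovery week 19 (0.63, adjusted p = 0.00578), where library 5 lay within the HF range and the call was lost without library 1 of HF week 5 (adjusted p 0.000717 to 0.0625 over 18 alternatives). Dnajc30, a complex I-associated protein, fell by 0.65 (adjusted p = 0.0233) and Dnajc11, a partner of the cristae organizing complex, by 0.46 (adjusted p = 0.0214). Both lost their call without library 1 of HF week 5 and without control library 3, and Dnajc11 also without control library 4, with adjusted p of 0.00657 to 0.195 and 0.00911 to 0.219 over 18 alternatives. The pair of inner membrane J proteins that serve the import motor did not pass. Dnajc15 had 236, 238, 218, 227 and 355 FPKM in the controls and 162, 241 and 231 in HF (log2 fold change -0.27 with SE 0.27, adjusted p = 0.504). Dnajc19, mutated in a recessive dilated cardiomyopathy, had 148, 174, 141, 151 and 202 FPKM in the controls and 96.4, 125 and 120.2 in HF and its groups did not overlap (log2 fold change -0.51 with SE 0.32, adjusted p = 0.257). One spread over all groups, HF week 3 included, enters this test, and for Dnajc19 the SD within groups was 0.474 log2 units. Its HF week 3 libraries stood apart from each other, at 15.6 and 81.9 FPKM. Without the HF week 3 libraries, 34.1% of all genes were called in HF week 5 against the controls. In this comparison 8 of 10 mitochondrial members and 26 of 66 members in all lay below the controls without overlap, and 0 above, where 14.7% of all genes lay below and 14.8% above (29.5% in all). Without library 1 of HF week 5, all 10 values stayed below 0 and the median moved from -0.54 to -0.38. In that setting 4 of the 10 were called lower, where 6.46% of all genes were.

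**Figure D3:**
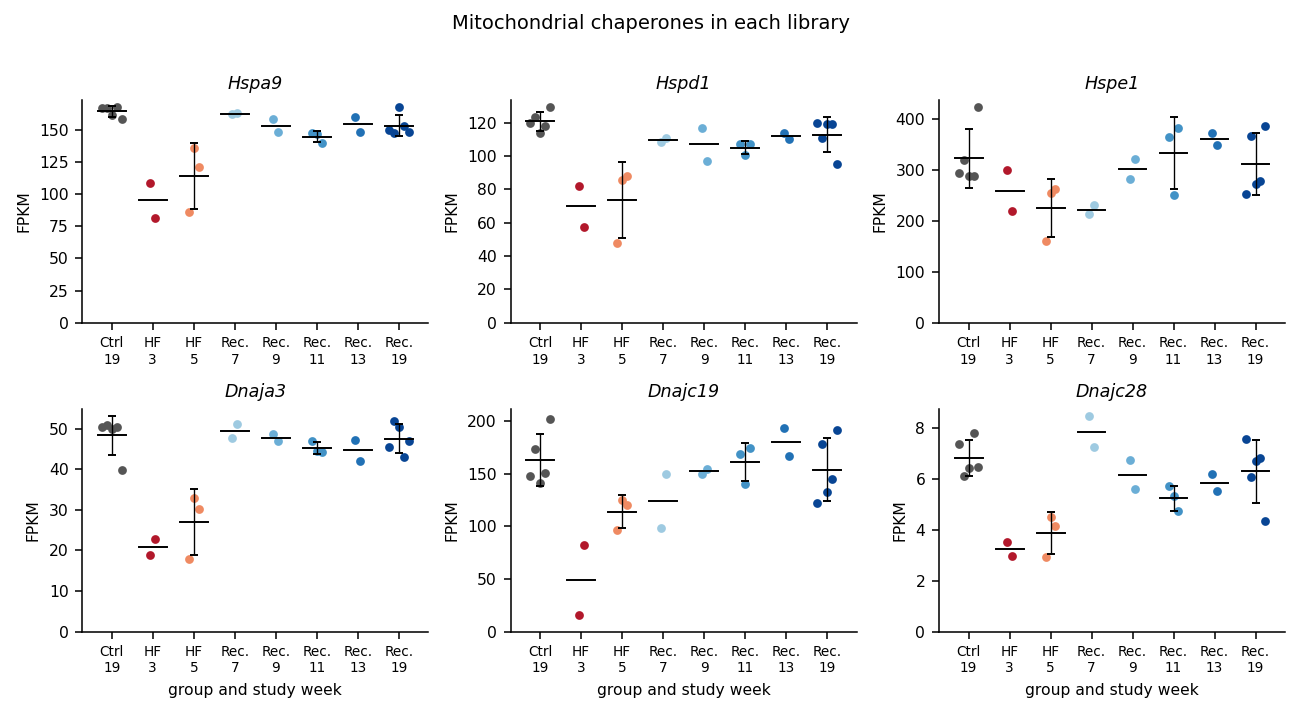
FPKM of 6 mitochondrial chaperone genes in every library (points), with the group mean as a line and, for groups of 3 or more, the SD as a bar; the groups stand in order of study week. Dnaja3 and Hspd1 lie between 17.8 and 33.0 and between 47.6 and 88.1 FPKM in HF week 5, below all control and recovery libraries, while Dnajc19 is lowest in HF week 3.

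The ER members moved apart from each other in HF week 5, with a median of 0.03. The DnaJ protein Dnajb9 (ERdj4), a co-chaperone of Hspa5 and a target of the unfolded protein response, had 17.8, 17.7, 17.4, 18.01 and 15.6 FPKM in the controls and 12.4, 12.2 and 11.03 in HF week 5. In Recovery week 19 it had 16.3, 20.7, 18.1, 19.1 and 21.3 FPKM, and HF lay below both without overlap (log2 fold change -0.52 with SE 0.15, adjusted p = 0.0197 and 0.66, adjusted p = 0.00509). The first call was lost without library 1 or library 3 of HF week 5, with adjusted p of 0.000281 to 0.0730 over 18 alternatives. Dnajb12, an ER membrane J protein of protein quality control, had 9.24, 7.82, 8.36, 7.95 and 6.08 FPKM in the controls and 5.17, 5.48 and 4.94 in HF (log2 fold change -0.55 with SE 0.13, adjusted p = 0.00660). It was at 7.55, 10.6, 9.11, 8.28 and 8.28 FPKM in Recovery week 19 (0.69, adjusted p = 0.00136). Dnajc16 (ERdj8) had the largest fall of a called member: 2.79, 3.13, 3.25, 2.96 and 1.13 FPKM in the controls, 1.05, 1.10 and 1.02 in HF and 3.19, 2.78, 2.94, 2.57 and 2.02 in Recovery week 19. Control library 5 lay just above HF, far from the other controls (log2 fold change -0.96 with SE 0.21, adjusted p = 0.00368; 1.03, adjusted p = 0.00227 for recovery). At these low levels the pseudocount of 0.5 FPKM makes the log2 scale understate the change. Dnajc25 (-0.62) and Dnajc14 (-0.43) were also lower, in 11 and 12 of 18 alternatives, and Dnajc10 (ERdj5), a disulfide reductase of ER-associated degradation, was higher by 0.58 (adjusted p = 0.00396).

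The main folding chaperones of the ER were not called in HF week 5. Hspa5 (BiP) had 140.4, 147, 145, 148 and 166 FPKM in the controls and 94.2, 190.0 and 116 in HF, with one HF library above all controls and the others below them (log2 fold change -0.22 with SE 0.18, adjusted p = 0.395). Hsp90b1 (Grp94) had 62.6, 63.1, 58.0, 68.4 and 100.5 FPKM in the controls and 75.5, 126 and 75.8 in HF, and its groups overlapped (log2 fold change 0.38 with SE 0.22, adjusted p = 0.233). Dnajb11 (ERdj3), a soluble partner of Hspa5, had 23.7, 25.3, 24.5, 24.5 and 26.3 FPKM in the controls and 28.1, 26.3 and 25.2 in HF (log2 fold change 0.09 with SE 0.09, adjusted p = 0.469), with the smallest standard error among the named members. Dnajc3 (p58IPK) had 5.19, 6.14, 5.45, 6.69 and 8.41 FPKM in the controls and 9.43, 6.38 and 7.56 in HF (log2 fold change 0.27 with SE 0.17, adjusted p = 0.262).

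In HF week 3 several of these ER genes were higher than in the controls, in libraries where the summed markers of other cell types were higher as well. The fibroblast markers summed to 678.8 and 673.0 FPKM (224.8 to 313.3 in the controls), with Col3a1 at 5.59-fold, Col1a2 at 5.05-fold and Postn at 8.81-fold of the controls. The endothelial markers summed to 254.6 and 333.9 FPKM (179.0 to 204.7 in the controls), the smooth muscle markers to 184.9 and 146.9 FPKM (69.8 to 99.2), with Cnn1 at 7.59-fold and Tagln at 2.38-fold of the controls, the 6 macrophage and leukocyte markers to 190.1 and 176.0 FPKM (90.0 to 168.5), and the 9 cardiomyocyte markers other than Myh6 to 30920 and 25050 FPKM (36250 to 43700). Within the lists of other cell types, Kdr (0.565-fold) and Cd68 (0.265-fold) were called lower. Cdh5, Dcn, Acta2, Myh11, Ptprc, Csf1r, Emr1, Lyz2 and Cd14 were not called. Pecam1, Tie1, Tek, Emcn, Col1a1 and Pdgfra were called higher, as were the genes with a fold given before these. The part of these markers in the ER values was not tested. Hsp90b1 was at 215 and 104 FPKM, both above the highest control (log2 fold change 1.11 with SE 0.25, adjusted p = 0.00144). Dnajb11 was at 39.7 and 30.8 (log2 fold change 0.49 with SE 0.10, adjusted p = 0.000495) and Dnajc3 at 14.9 and 8.71 (log2 fold change 0.81 with SE 0.20, adjusted p = 0.00215), also above all controls. Hspa5 was at 227 and 125 FPKM, with library 2 below the controls (log2 fold change 0.18 with SE 0.21, adjusted p = 0.488). In all, 6 of 14 ER members were higher (Hsp90b1, Dnajb11, Dnajc3, Dnajc10, Dnajc18 and Dnajc1) and 2 lower (Dnajb12 and Dnajc16), where 23.1% of all genes were higher and 27.6% lower. Without library 1, 3 were higher and 3 lower, where 14.5% of all genes were higher and 15.6% lower, and Hsp90b1 and Dnajc3 lost their calls (adjusted p of 6.88e-05 to 0.1196 and 0.000137 to 0.137 over 15 alternatives).

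Promoter stretches of these ER genes are printed for the ER stress element, the letters CCAAT and CCACG with 9 bases between them, read on either strand, with the fixed letters in capitals (RefSeq, GRCm38.p6, in the direction of each gene). They lie at chr2:34772019-34772048 (plus strand), chr10:86705515-86705664 (minus strand) and chr14:118937812-118937931 (plus strand).
Hspa5: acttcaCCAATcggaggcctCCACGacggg
Hsp90b1: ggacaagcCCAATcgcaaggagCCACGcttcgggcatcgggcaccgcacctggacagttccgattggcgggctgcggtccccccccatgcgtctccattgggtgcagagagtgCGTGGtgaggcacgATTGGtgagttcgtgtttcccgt
Dnajc3: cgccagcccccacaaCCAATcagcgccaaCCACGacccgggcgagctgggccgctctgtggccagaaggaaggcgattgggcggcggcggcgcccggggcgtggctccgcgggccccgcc
The element was in the windows of these 3 among 12 tested ER members with a window, and in 0.137% of 27025 genes. The windows of Dnajb9 and Dnajb11 held the shorter letters CCAAT, as did those of 41.1% of all genes, and the longer element contains it.

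**Figure D4:**
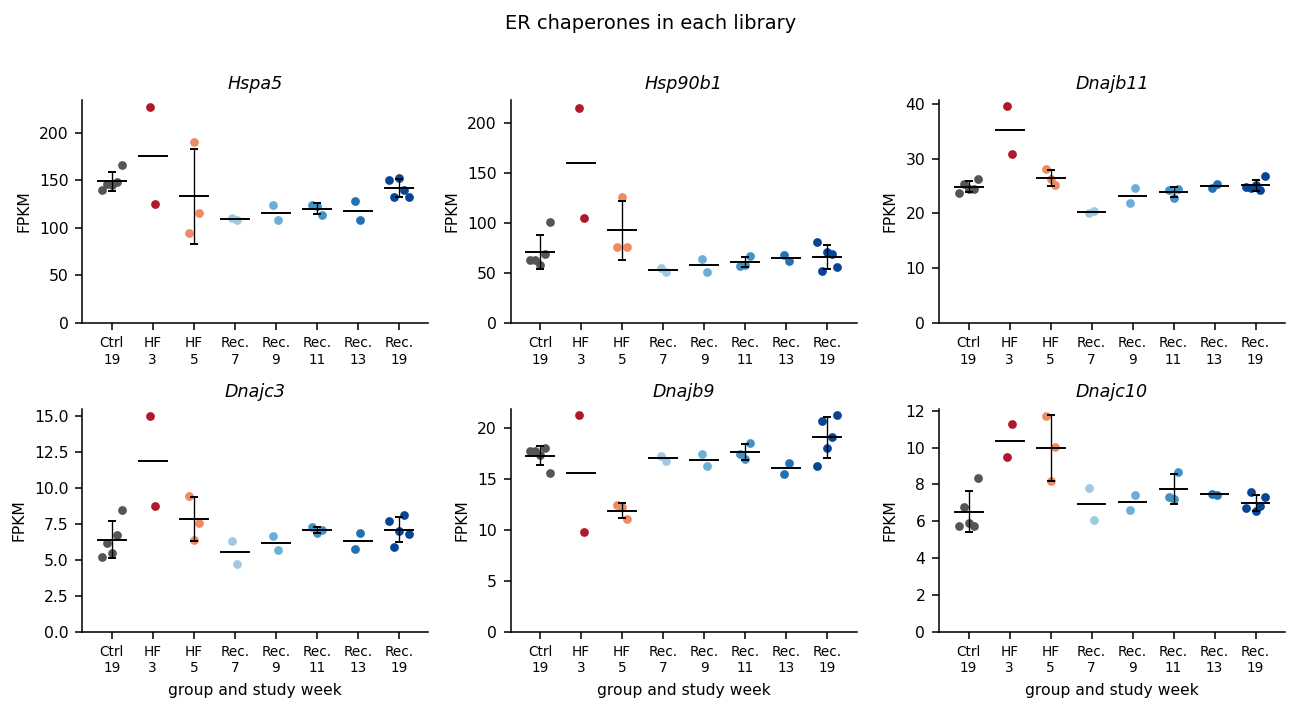
FPKM of 6 ER chaperone genes in every library (points), with the group mean as a line and, for groups of 3 or more, the SD as a bar, in order of study week. The group means of Hsp90b1, Dnajb11 and Dnajc3 are highest in HF week 3, with single HF week 5 libraries of Hsp90b1 and Dnajc3 above the lower HF week 3 library, and Dnajb9 lies at 12.4 FPKM or lower in HF week 5, below every control.

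The inducible Hsp70 genes varied more between libraries of a group than nearly all other genes. Hspa1a had 36.1, 38.6, 12.01, 3.58 and 4.73 FPKM in the 5 controls, 3.43, 3.301 and 7.92 in HF week 5 and 20.1, 58.0, 2.37, 8.31 and 4.98 in Recovery week 19. Hspa1b, its neighbouring paralog, had 33.5, 38.4, 11.4, 2.37 and 3.75 FPKM in the controls, 1.86, 2.11 and 6.13 in HF and 22.9, 60.2, 2.41, 9.74 and 4.09 in Recovery week 19. Controls 1 and 2 and Recovery week 19 library 2 were high in both genes, and the lowest controls lay within the HF range. The SD within groups was 1.23 log2 units for Hspa1a and 1.33 for Hspa1b, at percentiles 99.5 and 99.6 of all genes tested, where the median gene had 0.26 and the median member 0.23. No call followed for HF week 5 against the controls (log2 fold change -1.38 with SE 0.81, adjusted p = 0.230 for Hspa1a; log2 fold change -1.73 with SE 0.88, adjusted p = 0.163 for Hspa1b).

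Other members were high in the same libraries. Dnajb1 (Hsp40), the main partner of stress-induced Hsp70, had 32.0, 40.9, 27.0, 14.1 and 16.4 FPKM in the controls, 9.55, 9.08 and 15.3 in HF week 5 and 23.1, 60.6, 11.1, 14.9 and 16.6 in Recovery week 19. Controls 2 and 1, in that order, ranked first and second of the controls for Hspa1a, Hspa1b, Dnajb1, Hsph1 and Dnaja1, and libraries 1 and 2 were the highest of Recovery week 19 for all of them. Hsp90aa1, also inducible, did not share this order: control library 5 was its highest control and library 1 the third, and in Recovery week 19 libraries 1 and 4 were highest and library 2 the third. Dnajb1 missed the threshold in HF (log2 fold change -1.10 with SE 0.40, adjusted p = 0.0520) and passed it in 7 of 18 alternatives, over all of which the adjusted p was 0.0331 to 0.184. Hsph1 (Hsp110), an exchange factor of Hsp70, had 18.7, 22.5, 17.1, 14.1 and 18.3 FPKM in the controls, 7.15, 11.5 and 15.6 in HF and 23.5, 22.2, 13.3, 20.3 and 13.7 in Recovery week 19 (log2 fold change -0.70 with SE 0.28, adjusted p = 0.0753). Dnaja1, a farnesylated partner of Hspa8, had 24.3, 26.1, 19.97, 14.7 and 23.3 FPKM in the controls, 9.04, 10.5 and 19.5 in HF and 27.6, 27.2, 14.9, 21.7 and 16.1 in Recovery week 19, with library 3 of HF at the level of the controls. It was called lower in HF (log2 fold change -0.76 with SE 0.25, adjusted p = 0.0339) and higher in recovery (0.73, adjusted p = 0.0400), and each call held in 10 of 18 alternatives. The HF call was lost without control library 1, 2 or 3 or without HF week 5 library 1 or 2 (adjusted p 0.00642 to 0.222), and the recovery call without HF week 5 library 1 or 2 or without Recovery week 19 library 1, 2 or 4 (adjusted p 0.00776 to 0.241).

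The promoter stretches of the pair are shown because they are nearly the same. Both hold the letters GAANNTTC, a pair of heat shock units, in capitals, 104 bases before the start (RefSeq, GRCm38.p6, minus strand, chr17:34972157-34972276 for Hspa1a and chr17:34959239-34959358 for Hspa1b).
Hspa1a: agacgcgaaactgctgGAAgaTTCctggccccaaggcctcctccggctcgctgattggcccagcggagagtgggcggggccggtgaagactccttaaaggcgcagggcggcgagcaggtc
Hspa1b: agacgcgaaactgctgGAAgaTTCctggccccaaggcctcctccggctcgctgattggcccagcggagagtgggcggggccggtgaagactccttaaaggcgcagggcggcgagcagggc
The stretches differ in 1 base and the windows of 300 bases in 4. The letters GAANNTTC or TTCNNGAA, a pattern that the run of 3 units also holds, were in the windows of 16 of 53 tested members (30.2%) and of 17.0% of all genes. Of the stretches of 50 bases in the transcripts, 60.3% of Hspa1a and 62.3% of Hspa1b were also in another gene, so the split of reads between the pair is uncertain. The share was 73.2% for Hspa8, 58.5% for Hsp90aa1 and 51.6% for Hspb1, 44.8% for Hspd1 and 36.1% for Hspe1, and their levels are uncertain in the same way. It was under 10% for 54 of 66 tested members.

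**Figure D5:**
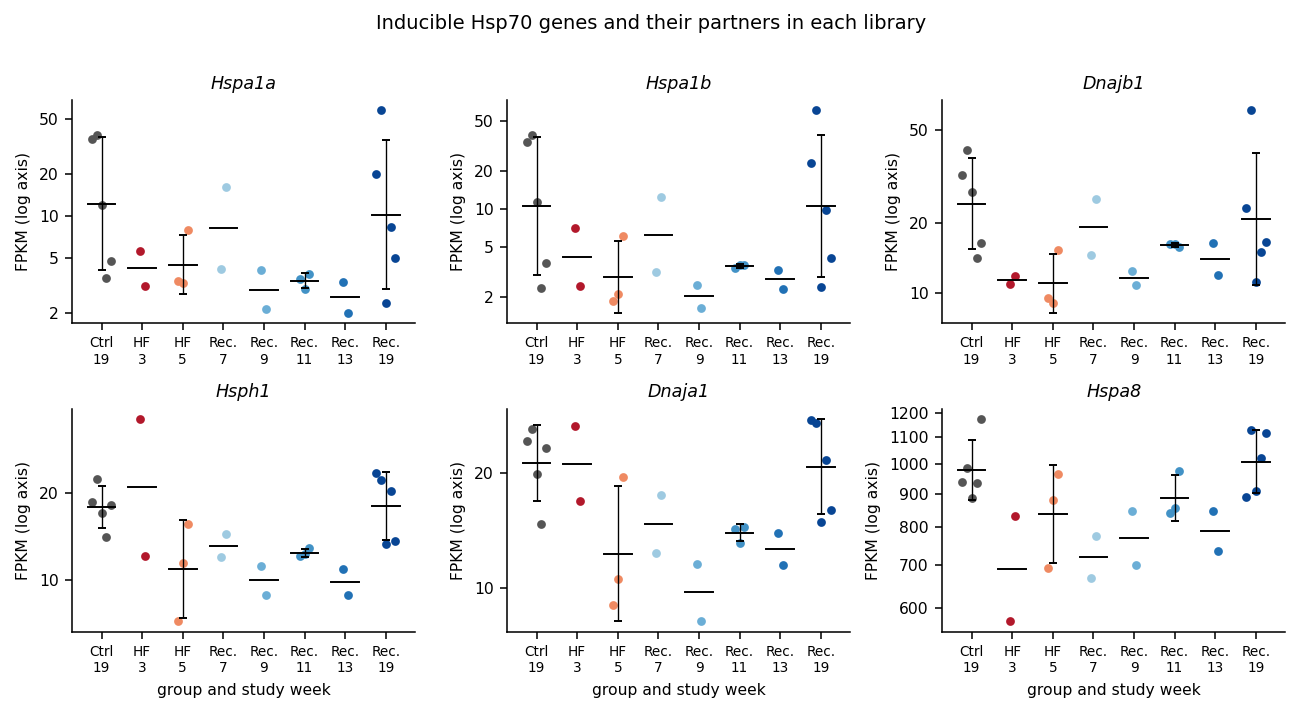
FPKM on a log axis of Hspa1a, Hspa1b, Dnajb1, Hsph1, Dnaja1 and the constitutive Hspa8 in every library (points), with the geometric mean as a line and, for groups of 3 or more, the SD of log2 FPKM as a bar, in order of study week. Hspa1a ranges from 3.58 to 38.6 FPKM within the controls and from 2.37 to 58.0 within Recovery week 19, while Hspa8 ranges from 888.9 to 1173 FPKM in the controls.

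Among the constitutive cytosolic chaperones, Hsp90ab1 and Hspa4 were lower in HF week 5. Hsp90ab1, the constitutive Hsp90 of the cytosol, had 623, 638, 574, 572 and 562 FPKM in the controls, 292, 475 and 468 in HF and 595, 694, 569, 629.7 and 609.9 in Recovery week 19. All HF libraries were below the others, library 1 the furthest (log2 fold change -0.56 with SE 0.18, adjusted p = 0.0328; 0.62, adjusted p = 0.0194 for recovery), and both calls were lost without library 1. The HF call was also lost without control library 1, 2, 3 or 4 (adjusted p 0.00540 to 0.267 over 18 alternatives, and 0.00269 to 0.172 for recovery). Hspa4, an Hsp110 exchange factor, went from 22.6 ± 0.547 FPKM (SD, n = 5) to 17.8 ± 2.52 (n = 3) and 21.3 ± 1.18 (n = 5), and its fall of 0.35 (adjusted p = 0.0119) was not called without library 1 of HF week 5. Hspa8 (Hsc70), the main constitutive Hsp70, had 940.5, 988, 889, 937 and 1173 FPKM in the controls, 692, 882 and 966 in HF and 892, 1131, 910.3, 1022 and 1117 in Recovery week 19, which overlapped (log2 fold change -0.23 with SE 0.15, adjusted p = 0.289). Hsp90aa1, the inducible Hsp90, had 48.9, 54.0, 37.4, 37.5 and 83.9 FPKM in the controls, 59.7, 47.3 and 56.5 in HF and 59.1, 43.3, 34.6, 50.7 and 38.2 in Recovery week 19, with control library 5 above all of HF (log2 fold change 0.12 with SE 0.23, adjusted p = 0.748). Recovery weeks 7 to 13 were at 27.1 to 45.9 FPKM, below every HF week 5 library (log2 fold change -0.70 with SE 0.21, adjusted p = 0.0223), a call lost without library 1 or 3 of HF week 5 (adjusted p 0.00825 to 0.122 over 22 alternatives).

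Of the small heat shock proteins, Hspb7 was lower in HF week 5, as was Bag3. Bag3, which couples Hspb8 to Hsp70 and is needed for sarcomere upkeep, had 112, 118, 110.1, 114 and 104 FPKM in the controls, 54.7, 84.7 and 80.6 in HF and 100.75, 109.6, 101.15, 96.97 and 119 in Recovery week 19. No HF library reached the others (log2 fold change -0.63 with SE 0.14, adjusted p = 0.00285; 0.54, adjusted p = 0.00704 for recovery), and the recovery call was lost without library 1 of HF week 5 (adjusted p 0.00180 to 0.0760 over 18 alternatives). Hspb7, a cardiovascular small heat shock protein, had 754, 842, 889.8, 889 and 578 FPKM in the controls, 351, 731 and 513 in HF and 659, 715, 846, 696 and 953 in Recovery week 19, with overlap (log2 fold change -0.62 with SE 0.20, adjusted p = 0.0341), and lost its call without control library 1, 2, 3 or 4 or without HF week 5 library 1 or 3 (adjusted p 0.00517 to 0.285 over 18 alternatives). Cryab, the most abundant member, had 2579.5, 2888, 2786, 2626 and 2657 FPKM in the controls, 2294, 3495 and 3001 in HF and 2080.5, 2738, 2531, 2317 and 3746 in Recovery week 19, with HF libraries on both sides of the controls (log2 fold change 0.09 with SE 0.21, adjusted p = 0.780). Hspb1 (Hsp25 in the mouse) had 734, 888, 737, 742 and 881 FPKM in the controls and 578, 1054 and 875 in HF (log2 fold change 0.03 with SE 0.19, adjusted p = 0.923). Hspb8, the partner of Bag3, had 288, 304, 288, 313 and 263 FPKM in the controls and 138, 299.99 and 289 in HF, with only library 1 of HF week 5 under the controls (log2 fold change -0.35 with SE 0.23, adjusted p = 0.282).

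Hspb6 (Hsp20), a small heat shock protein of muscle, had the widest range of this group as a ratio of its highest to its lowest library. It was at 931, 1053, 997, 963 and 712 FPKM in the controls, 101.09 and 514 in HF week 3, 340.0, 778 and 711 in HF week 5 and 759.7, 1013, 877, 857 and 1218 in Recovery week 19. It was called lower in HF week 3 (log2 fold change -2.01 with SE 0.40, adjusted p = 0.000445), with a log2 fold change of -0.84 without library 1 of that group, and not in HF week 5 (log2 fold change -0.69 with SE 0.35, adjusted p = 0.162). The spread shared by all groups, 0.516 log2 units for Hspb6, includes the HF week 3 libraries. In HF week 3, 5 of the 8 were lower, where 27.6% of all genes were lower: Hspb6, Hspb8 (-1.06), Hspb7 (-0.94), Cryab (-0.61) and Bag3 (-0.61), and only Bag3 kept its call without library 1 of that group, losing it without library 2. Hspb2 and Hspb3, muscle small heat shock proteins, had log2 fold changes of 0.18 and 0.13 in HF week 5 and were not called. Hspb11, an intraflagellar transport protein for which no compartment was given, had an SD within groups of 0.88 log2 units and was not called in HF week 5 (0.47).

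Cytosolic, nuclear and vesicle DnaJ proteins were lower in 8 of 20 cases in HF week 5 and higher in 1. Among all genes, 12.4% were lower and 11.6% higher. Dnajc5 (cysteine string protein), a J protein of secretory vesicles, had 9.39, 9.86, 12.5, 10.96 and 6.21 FPKM in the controls, 4.66, 4.57 and 5.36 in HF and 11.8, 10.6, 10.4, 10.4 and 7.81 in Recovery week 19. All HF libraries lay below the others (log2 fold change -0.91 with SE 0.18, adjusted p = 0.00163; 0.99, adjusted p = 0.000842 for recovery). Dnajc7, which binds Hsp70 and Hsp90 both, had 21.4, 21.8, 20.6, 19.6 and 15.7 FPKM in the controls, 11.7, 11.5 and 12.2 in HF and 24.1, 21.3, 21.5, 20.4 and 12.7 in Recovery week 19 (log2 fold change -0.72 with SE 0.16, adjusted p = 0.00313; 0.71, adjusted p = 0.00344 for recovery). Library 5 of the controls and of Recovery week 19 came closest to HF for both genes. Dnajb4, a partner of Hsp70 in muscle, had 31.8, 32.7, 34.5, 32.8 and 37.4 FPKM in the controls, 15.3, 24.4 and 24.2 in HF and 32.2, 32.5, 31.3, 31.0 and 33.0 in Recovery week 19, without overlap (log2 fold change -0.69 with SE 0.12, adjusted p = 0.000681; 0.61, adjusted p = 0.00167 for recovery). Lower with smaller or less stable changes were Dnajc12 (-0.65), Dnajb5 (-0.53), Dnajb2 (-0.42), Dnaja2 (-0.38) and Dnaja1 above; without library 1 of HF week 5 only Dnajc12 of these kept its call. Over 18 alternatives Dnajb5 was called in 11, Dnajb2 in 7 and Dnaja2 in 17. The exception, Dnajc2, a ribosome-associated J protein, was higher by 0.46 (adjusted p = 0.0332) and 0.60 lower in Recovery week 19 than in HF (adjusted p = 0.00758). Its HF call held in 9 of 18 alternatives and was lost with each library centred on its median, and without control library 1, 2, 3 or 4 or without HF week 5 library 1 or 2.

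Genes that work with the members and are outside the rule were counted in the same fit. Of 15 mitochondrial import, folding and protease genes, 7 were lower in HF week 5 and 0 higher, with a median of -0.40, where 12.4% of all genes were lower and 11.6% higher. They were Grpel1 (-1.10) and Grpel2 (-0.42), the exchange factors of Hspa9, Ppif (-1.02), Afg3l2 (-0.63), Clpx (-0.59), Trap1 (-0.59) and Clpb (-0.55). Without library 1 of HF week 5, 3 were lower, where 6.46% of all genes were lower, and the median was -0.23. Of 28 regulators and cytosolic partners, 7 were lower and 0 higher (median -0.07): Fkbp4 (-0.75), Stip1 (-0.69) and Ahsa1 (-0.45), which serve Hsp90, Bag2 (-0.69), St13 (-0.56), Tcp1 (-0.34) and the myosin chaperone Unc45b (-0.28). Of 21 further ER genes, 2 were higher (Sec61b, 0.59, and Sec63, 0.46) and 2 lower (Herpud1, -0.78, and Atf6, -0.47) in HF week 5, each a share under that of all genes. In HF week 3, 11 of these ER genes were higher and 2 lower (median 0.43), where 23.1% of all genes were higher and 27.6% lower. Without library 1 of HF week 3 the counts were 9 and 1, where 14.5% of all genes were higher and 15.6% lower. The higher genes included the disulfide isomerases Pdia6 (1.01), Pdia3 (0.98) and Pdia4 (0.66) and the stress-induced Creld2 (1.28) and Sdf2l1 (1.07).

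In HF week 3, 28 of 66 members were lower and 9 higher than the controls. Among all genes, 27.6% were called lower and 23.1% higher (50.7% in all). With an unadjusted p, 41 members and 57.1% of all genes passed. Without library 1 of HF week 3, 24 members were lower and 3 higher, and 21 of the 37 calls recurred. In that setting 15.6% of all genes were lower and 14.5% higher (30.1% in all). The 2 libraries of this group both carried atrial genes and correlated with each other at r = 0.885 across genes, against 0.952 to 0.991 within the other groups, so the treatment and the atrial genes cannot be told apart here. Dnajc19 fell from 141 to 202 FPKM in the controls to 15.6 and 81.9 (log2 fold change -2.15 with SE 0.37, adjusted p = 0.000111), and without library 1 its log2 fold change was -0.98 (adjusted p = 0.00647). Dnaja3 was at 18.8 and 22.8 FPKM (log2 fold change -1.20 with SE 0.17, adjusted p = 1.7e-05), Hspa9 at 109 and 81.2 (log2 fold change -0.80 with SE 0.14, adjusted p = 0.000122) and Hspd1 at 82.0 and 57.6 (log2 fold change -0.81 with SE 0.18, adjusted p = 0.00121), each below all controls. Among the mitochondrial members, 8 of 10 were lower with a median of -1.06 (27.6% of all genes), and 6 were lower without library 1 (15.6% of all genes). Dnajc12 (-1.50) and Dnajb12 (-1.01) kept their calls in all 15 alternatives as well. Between HF week 5 and HF week 3, 9 members were higher and 2 lower, with 13.1% of all genes higher and 8.28% lower (21.4% in all), and limma called 0 without library 1 of HF week 3 (1.31% of all genes) or with only these groups in the fit (0.0610%). By unadjusted p, 25 members and 39.1% of all genes passed.

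After the treatment ended, the matrix chaperones Dnaja3, Hspd1 and Hspa9 were above their HF week 5 levels at the first week sampled. In the pooled weeks 7 to 13, 17 members were higher and 4 lower than in HF week 5, where 11.2% of all genes were higher and 10.9% lower (22.1% in all). By unadjusted p, 32 members and 36.0% of all genes passed. Without library 1 of HF week 5, the members called by adjusted p went from 21 to 7, all higher, and 9.32% of all genes were called. Dnaja3 was at 47.7 and 51.1 FPKM in week 7, 48.6 and 46.9 in week 9, 46.8, 44.5 and 44.1 in week 11 and 47.2 and 42.1 in week 13, all above HF (log2 fold change 0.83 with SE 0.13, adjusted p = 0.000382). Hspd1 was at 108 and 111, then 117 and 97.1, then 107, 100.72 and 107 and 114 and 110.2 FPKM, again above HF (log2 fold change 0.60 with SE 0.14, adjusted p = 0.00605). Hspa9 started at 162 and 163 FPKM in week 7, inside the control range, and was at 158 and 148, 147, 147 and 139.7 and 160.1 and 148 in the later weeks (log2 fold change 0.45 with SE 0.11, adjusted p = 0.00654). These genes of the matrix stood above HF in every recovery library, and without library 1 of HF week 5 Hspd1 and Hspa9 were not called (adjusted p 0.00266 to 0.0936 and 0.00202 to 0.0993 over 22 alternatives). Hspe1 was at 212 and 231 FPKM in week 7, inside the HF range, and at 282 and 320.4, 364, 251 and 382 and 373 and 347 after it (log2 fold change 0.43 with SE 0.18, adjusted p = 0.0837). Lower than in HF week 5 were Hsp90aa1, Hsp90b1 (-0.61), Dnajc10 (-0.42) and Dnajc1 (-0.31), and none of these kept its call without library 1 of HF week 5. Higher beside the matrix genes were the ER members Dnajc16 (0.86), Dnajb12 (0.62) and Dnajb9 (0.49), the mitochondrial Dnajc28 (0.63) and Dnajc30 (0.61), the cytosolic Dnajc12 (0.76), Dnajc5 (0.69), Dnajb4 (0.58), Dnajc7 (0.56), Dnaja2 (0.44), Hspbp1 (0.43) and Hspa4 (0.28), and Hspb7 (0.62) and Bag3 (0.38). Of these and the matrix genes, Dnaja3, Dnaja2, Dnajb12, Dnajb4, Dnajc12, Dnajc16 and Dnajc5 were called in all 22 alternatives. In these libraries, where Myh6 was listed above 0, the 10 most abundant genes held 27.9 to 37.4% of the summed FPKM.

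Against the controls, recovery left few differences. For Recovery weeks 7 to 13, 0 of 66 members were called by limma (9 of 12759 genes, 0.0705%), 11 had an unadjusted p under 0.05 (6.90% of all genes) and 3 were called with only these groups in the fit (0.878% of all genes). For Recovery week 19, 0 members were called by limma (3 genes, 0.0235%) and 0 had an unadjusted p under 0.05 (2.88% of all genes). The member log2 fold changes of Recovery week 19 against the controls ranged from -0.27 to 0.26, with a median of -0.04, and the mitochondrial members from -0.13 to -0.02. A p over the threshold does not show that the levels were equal: for Dnaja3 the difference was -0.02 (SE 0.13), for Bag3 -0.08 (SE 0.12), and for Hspa1a -0.24 (SE 0.70).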

How the data were processed

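The study's methods state poly(A) selection and paired-end RNA sequencing, and the submitters' processing notes name TopHat2, Cuffdiff and the mm9 build. The values are FPKM per gene as the authors deposited them, and versions are not given in the labels. The table holds no counts, so absolute depth is unknown. Relative depth, from the steps of low values, spanned 0.728 to 1.39 over 23 libraries. Library 1 of HF week 3 had 7 usable genes, too few for an estimate. Each column name carries a group and week, which gave its group, and 5 columns named for Control week 5 were not used, since the labels hold 4 such samples; the planned comparisons with Control week 5 were not run. Recovery week 9 has 2 columns for 3 labelled samples. Nothing in the table ties libraries to separate animals, so p-values measure the spread between libraries. The experiment was repeated in cohorts that the labels do not name.

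Testing covered genes averaging 0.5 FPKM or more, as log2(FPKM + 0.5), with limma 3.58.1 in R 4.3.3: one mean per group (8 groups, 16 residual degrees of freedom), eBayes with trend, two-sided, Benjamini-Hochberg adjusted p under 0.05 over 12759 genes. On this scale the fold changes of low genes come out too small. The script was tested on simulated data. Members and lists were chosen with earlier results of these data known. Named members are those with a central role in each compartment and the 8 largest changes among called members in each of HF week 5 against the controls and Recovery week 19 against HF week 5; other called members are given by their log2 fold change. Promoter windows came from RefSeq (GRCm38.p6; 53 of 66 tested members matched by symbol), a build other than mm9, and transcripts from GENCODE vM21. Alternatives were other pseudocounts, filters, scalings, models and each library left out.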

Additional observations from a re-analysis of the deposited data

Results flagged for a closer look

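In groups of 4 or 5 libraries, 62 sets of values of named members were examined for a library far from the rest, and 7 were found; chance gives about 1 in 20. Of these, 5 were in control library 5. Dnaja3 was at 39.9 FPKM there and at 49.9 to 50.8 in the other controls. Dnajc16 was at 1.13 FPKM against 2.79 to 3.25, and Dnajb9 at 15.6 against 17.4 to 18.0. In the other direction, Hspe1 was at 422.8 FPKM against 286.8 to 319.8 and Dnajc15 at 355.1 against 218.0 to 238.4. In Recovery week 19, Hspa9 was at 167.2 FPKM in library 3 against 147.1 to 152.5, and Dnajc7 at 12.7 in library 5 against 20.4 to 24.1. Without control library 5, 24 of the 25 members called in HF week 5 were called again.

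HF week 5 and HF week 3 differed, by the limma contrast between them and Benjamini-Hochberg adjustment, in 3 of 31 named members, where 21.4% of all genes were called. Dnajc19 was 1.64 log2 units higher in week 5 (adjusted p = 0.0124), Hspb6 1.33 higher (adjusted p = 0.0383), and Dnajb11 lower, with a log2 fold change of -0.40 (adjusted p = 0.0187). All 3 lost the call without library 1 of HF week 3, and their highest adjusted p over 13 alternatives was 0.546, 0.947 and 0.533.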

How the results depend on the processing

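Count of members called, and the settings that moved it by over 1.5 times: against the controls, HF week 5 had 25 calls and 12 to 25 with one library left out, the lowest without HF library 1, and 16 (20.2% of all genes) without the 3 libraries highest in atrial markers, an alternative chosen after seeing the data. For HF week 3 against the controls the members called higher went from 9 to 3 without HF week 3 library 1. The share of all genes called higher went from 23.1% to 14.5%. Recovery week 19 against HF week 5 had 22, with 10 to 22 when one library was left out and 14 with only the groups compared (18.9% of all genes). Recovery weeks 7 to 13 against HF week 5 had 21, with 7 to 23 when one library was left out, 32 without HF week 3 (33.0% of all genes) and 32 at unadjusted p (36.0%). Recovery weeks 7 to 13 against the controls had 0, then 3 with only the groups compared (0.878% of all genes) and 11 at unadjusted p (6.90%). HF week 5 against HF week 3, added after seeing the data, had 11, then 0 with only the groups compared (0.0610% of all genes), 25 at unadjusted p (39.1%) and 0 to 33 with one library left out, 0 without HF week 3 library 1 (1.31%) and 33 without its library 2 (53.0%).

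No called member changed direction in any alternative run. Centring each library on its median moved the calls of all genes in HF week 5 from 1482 higher and 1580 lower to 1116 and 1869, and in Recovery weeks 7 to 13 against HF week 5 from 1429 and 1391 to 1833 and 971, while members went from 2 and 23 to 1 and 25, and from 17 and 4 to 22 and 2. No paired analysis was possible because the columns carry no animal letter or number that the labels share. Absolute depth is unknown, which limits members near 0.5 FPKM most.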
